A study of Mus musculus with 12 samples.

Results

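Amino acid transporters were taken as the rows of the count table whose symbol begins with Slc1a, Slc3a, Slc7a, Slc36a, Slc38a or Slc43a followed by a number, which gave 44 of 24421 rows. Of these, 2 rows (Slc36a1os and Slc7a6os) are genes on the strand opposite a transporter that meet the naming rule only, so 42 rows are transporters. After the filter on low counts 26 of the 44 rows were tested, Slc7a6os among them, and 18 were not. The study isolated ribosome-bound mRNA with RiboTag, in which an HA-tagged ribosomal protein Rpl22 is switched on in 1 cell type and its ribosomes are precipitated. The hosts were C57BL/6 mice of the genotype Rpl22fl/flHA;Cdh5(PAC)-CreERT2, in which tamoxifen activates a Cre recombinase driven by the promoter of the endothelial cadherin gene Cdh5. All hosts shared this genotype, this treatment and a syngeneic subcutaneous tumour of 12 days. Tumours came from 2 mouse melanoma lines, B16F10, called highly metastatic in the labels (n = 7 libraries), and B16F0, called poorly metastatic (n = 5). The implanted melanoma cells do not carry the tagged gene. No label ties a library to an animal, so the p-values given here reflect how far these libraries scatter, and that scatter may be partly technical.

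Cells import amino acids through carriers that differ in the side chains they accept and in the ion that drives them. Members of the Slc1 family carry acidic amino acids or exchange small neutral ones, Slc7 proteins carry cationic amino acids or pair as light chains with the heavy chains of the Slc3 family, and Slc36, Slc38 and Slc43 hold proton-coupled, sodium-coupled and facilitative carriers. Several of them sit in the lysosome membrane, where amino acids are sensed by mTORC1, and transcription of others is raised by the factor Atf4 when amino acids run short.

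Library totals ran from 5322510 to 20569186 counts in B16F10 and from 10753106 to 17381336 in B16F0, and both lines were present on each of 3 sequencing lanes. Lane 2 held B16F10 replicates 1 and 2 and B16F0 replicate 1. There the number that opens the library name, called the name prefix, differs between the lines. Line and name prefix cannot be told apart on that lane. All 20 pan-endothelial marker genes passed the filter, and their summed level ran from 765 to 5465 CPM (counts relative to the scaled library total). The 19 melanocytic markers that passed summed to between 14378 and 28932 CPM, so melanocytic markers were abundant in every precipitate, and a level given here belongs to the precipitate and not to one cell type. Fewer cells of a type and less RNA per cell cannot be told apart here. The mean log2 CPM of the 20 endothelial genes is called the endothelial score. Its mean was 5.46 ± 1.02 in the 7 B16F10 libraries and 5.50 ± 1.05 in the 5 of B16F0 (SD). It was highest in B16F10 replicates 4 (7.21) and 5 (6.55) and B16F0 replicate 3 (7.28), and lay between 4.43 and 5.34 in the other libraries. Replicate 5 of each line was rich in the ribosomal RNA Rn45s, at 31.4% of counts in B16F10 and 8.91% in B16F0. Receptor genes of smell, taste and pheromones, which most tissues do not use and whose reads are called background reads here, were highest in B16F10 replicates 1 and 2, with sums of 960 and 778 CPM, against 10.6 to 340 CPM elsewhere.

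Levels were compared between genes as CPM per kb of exon length. The 6 highest rows were Slc38a10 (59.5 CPM per kb, mean over 12 libraries), the sodium-coupled glutamine carrier Slc38a1 (54.7), the light chain of the large neutral amino acid exchanger LAT1, Slc7a5 (54.3), the cationic carrier Slc7a1 (46.3), the CD98 heavy chain Slc3a2 (39.6) and Slc38a2 (34.0), a carrier of small neutral amino acids. Slc38a10 exceeded Slc38a1 in 6 of 12 libraries and Slc38a1 exceeded Slc7a5 in 5 of 12, so the order of these 3 is not settled by their spread. Every library had Slc38a2 above the next row, the glutamine exchanger Slc1a5 (10.5 CPM per kb). Slc1a5, Slc1a4 (9.75), Slc7a6 (9.28) and Slc7a6os (9.24) formed a middle group whose neighbours changed places between libraries. Slc7a8 stood at 2.95 CPM per kb, Slc43a3 at 2.98 and Slc7a7 at 2.98. The lowest tested rows were the glutamate carriers Slc1a1 (0.75 CPM per kb) and Slc1a2 (0.13), with Slc43a1 (0.74), Slc7a2 (0.32) and Slc7a9 (0.28) between them. The 26 tested rows together took between 2121 and 4040 CPM of a library.

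**Figure D1:**
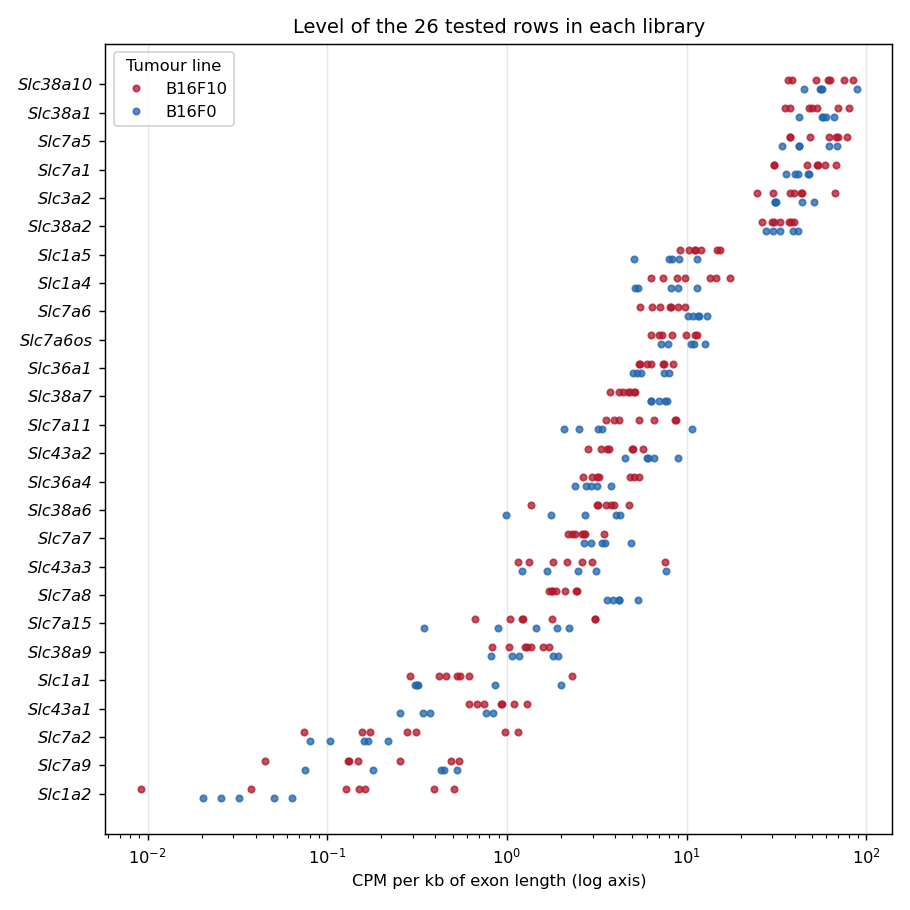
Level of each of the 26 tested rows in CPM per kb of exon length (log axis), 1 point per library, with B16F10 in red (7 libraries) and B16F0 in blue (5 libraries). Rows are ordered by their mean over 12 libraries, from Slc38a10 at 59.5 to Slc1a2 at 0.13 CPM per kb, and Slc7a8 and Slc38a7 show blue points to the right of all red ones.

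The first comparison asked which transporters differed between tumours of the highly and the poorly metastatic line. No tested row was higher in B16F10 and 2 of 26 (7.69%) were lower when edgeR's quasi-likelihood test, with lane as a factor, was read at an adjusted p under 0.05. Over all 13534 tested genes 2.77% were called, 1.30% higher and 1.47% lower. The 2 lower rows were Slc7a8, the light chain of the neutral amino acid exchanger LAT2, and Slc38a7, a carrier that exports glutamine from lysosomes. At an unadjusted p under 0.05 there were 9 of 26 rows (34.6%), 4 higher and 5 lower, against 14.8% of all genes. The median log2 fold change of the 26 rows was 0.08, against 0.02 over all tested genes, with 15 rows above 0 and 11 below. DESeq2, which called 6.3% of all genes, also called no row higher, and limma-voom, which called 4.94%, called 1, Slc7a11. Neither called gene, nor Slc43a3 below, overlaps another gene that has a row in the count table.

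Slc7a8 (chr14:54722209-54781946, minus strand, GRCm38) was measured at 26.9, 20.99, 18.1, 20.98 and 19.4 CPM in the B16F0 libraries. In B16F10 its lowest, median and highest values were 8.57, 9.40 and 12.3 CPM. The highest B16F10 library was below the lowest of B16F0. The means were 10.1 ± 1.56 CPM (SD, n = 7) and 21.3 ± 3.37 CPM (SD, n = 5), so that of B16F0 was 2.10 times that of B16F10. The log2 fold change was -1.07 ± 0.16 (SE from edgeR, adjusted p = 0.00286). The log2 difference was -0.89, -1.53 and -0.96 within lanes 1, 2 and 6, so each lane gave the same direction. The authors' deposited table lists -1.09 with a false discovery rate of 0.00131 for this gene.

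Slc38a7 (chr8:95835920-95853539, minus strand, GRCm38) was measured at 32.1, 26.4, 29.2, 31.2 and 26.3 CPM in B16F0. In B16F10 the lowest, median and highest values were 15.5, 19.5 and 21.4 CPM, again below every B16F0 library. The B16F10 mean was 19.0 ± 2.10 CPM (SD, n = 7) and the B16F0 mean 29.1 ± 2.68 CPM (SD, n = 5). The log2 fold change was -0.64 ± 0.12 (SE from edgeR, adjusted p = 0.00934), with -0.75, -0.63 and -0.54 within lanes 1, 2 and 6. Without the 3 libraries of lane 2 the value was -0.63 and the adjusted p 0.0792 in edgeR, so the call was lost while the size was nearly the same. The authors' deposited table gives -0.65 and a false discovery rate of 0.0351.

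Slc7a6, the light chain of an exchanger of cationic for neutral amino acids, was the third row whose lines did not overlap. It stood at 49.4, 53.8, 46.8, 59.4 and 52.6 CPM in B16F0 and at 25.1, 36.8 and 45.0 CPM (lowest, median, highest) in B16F10. Its log2 fold change of -0.56 ± 0.15 (SE) did not pass (edgeR adjusted p = 0.0821). It did pass with the endothelial score in the fit (adjusted p = 0.0256 in edgeR, where 3.89% of all genes were called and 2.15% were called lower), in DESeq2 (0.0244), in limma-voom (0.0432) and in edgeR without B16F10 replicate 3 (-0.65, adjusted p = 0.0403). Rows without overlap were thus 3 of 26 (11.5%), against 2.73% of all tested genes. The neighbour on the opposite strand, Slc7a6os, differed by -0.16 ± 0.12 on the log2 scale (adjusted p = 0.597 in edgeR).

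The melanocytic score, the mean log2 CPM of those markers, averaged 8.56 ± 0.27 over the 7 B16F10 libraries and 8.85 ± 0.23 over the 5 B16F0 libraries (SD, exact permutation p = 0.0732, two-sided, 0.268 adjusted over 8 marker lists), and 1 of its 19 tested genes was called lower. With this score in the fit Slc7a8 differed by -0.86 on the log2 scale (adjusted p = 0.00529 in edgeR) and Slc38a7 by -0.63 (0.0164). None of the 15 macrophage markers was called, and their sum ran from 35.5 to 321 CPM in B16F10 and from 72.0 to 331 CPM in B16F0. With the macrophage score in the fit the values were -1.07 (0.00443) and -0.64 (0.0122). The 8 skeletal muscle markers summed to between 55.7 and 761 CPM in B16F10 and between 15.6 and 27.0 CPM in B16F0. These sums were not tested. The mean log2 CPM of the 3 muscle genes that passed the filter was 2.84 ± 1.29 in B16F10 and 1.23 ± 0.68 in B16F0 (SD). Its exact permutation p was 0.0202 (two-sided, adjusted p = 0.162). Of these 3 muscle genes 1 was called higher in B16F10 by edgeR, where 1.30% of all tested genes were, and their median log2 fold change was 2.39. The part of muscle in the difference of Slc7a8 and Slc38a7 was not tested.

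**Figure D2:**
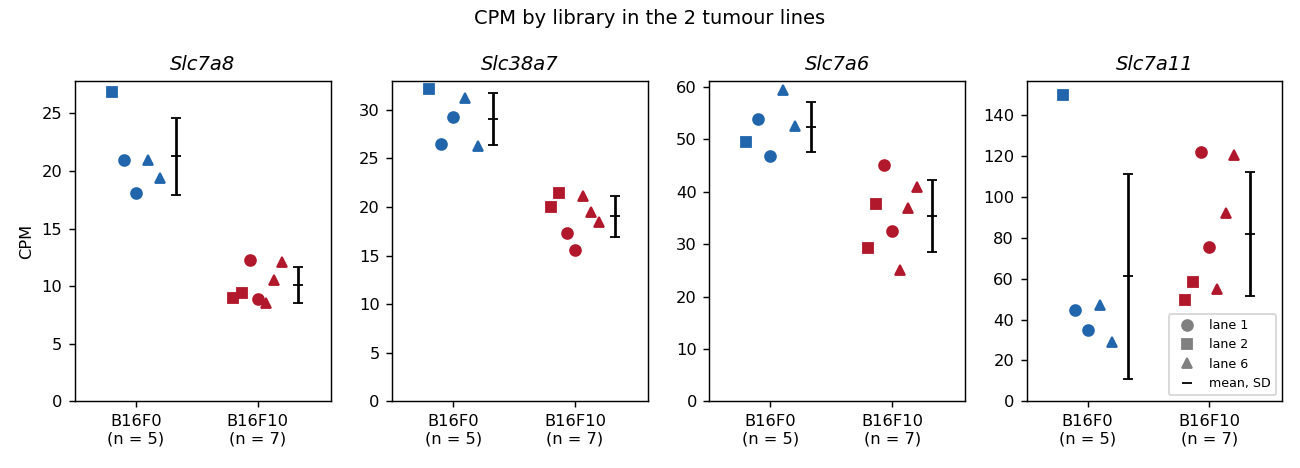
CPM of Slc7a8, Slc38a7, Slc7a6 and Slc7a11 in each library of B16F0 (blue, n = 5) and B16F10 (red, n = 7), with marker shape for the sequencing lane and bars for mean and SD. The lines do not overlap for the first 3 genes, while for Slc7a11 the B16F0 library of lane 2, at 149.6 CPM, lies above all others.

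The sequences before the start sites are shown for the 2 called genes and for Slc7a11, a textbook target of Atf4, to set the letters of 3 known elements beside the values. They come from RefSeq on GRCm38.p6, in which 33 of the 44 rows were found, each with 250 bases before and 50 after an annotated start. Capitals mark matches, on either strand, to TGATGNAA (the element bound by Atf4 with a C/EBP partner) and to TCACGTG or TCATGTG (E-box forms bound by the melanocyte factor Mitf and the lysosomal factor Tfeb). The Slc7a8 stretch is chr14:54781947-54782136, that of Slc38a7 chr8:95853517-95853546 and that of Slc7a11 chr3:50443644-50443703, all on the minus strand and written 5′ to 3′.
Slc7a8: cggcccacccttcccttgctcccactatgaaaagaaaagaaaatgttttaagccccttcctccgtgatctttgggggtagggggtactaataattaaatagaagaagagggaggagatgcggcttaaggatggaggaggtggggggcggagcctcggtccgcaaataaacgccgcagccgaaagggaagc
Slc38a7: gacggTCATGTGattcaggcTCACGTGtta
Slc7a11: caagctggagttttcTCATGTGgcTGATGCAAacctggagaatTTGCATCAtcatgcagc
The whole Slc7a8 window holds none of the 3 motifs, that of Slc38a7 holds both E-box forms, and that of Slc7a11 holds TGATGNAA 2 times, once per strand, beside a TCATGTG. TGATGNAA was present in 3.97% of all 32851 windows, and each E-box form in 3.77%. By gene it was found in 3 of 33 members (9.09%: Slc1a4, Slc7a7 and Slc7a11) against 4.51% of all 27025 genes. TCACGTG was found in 4 of 33 (12.1%: Slc1a6, Slc36a1, Slc38a7 and Slc7a14) against 4.29%, and TCATGTG in 2 of 33 (6.06%) against 4.31%. These are matches of letters, and TCACGTG on one strand can overlap itself on the other. The Slc38a7 stretch lies before the RefSeq start only. The gene position given above for Slc38a7 is from GENCODE and starts at 95853539, inside that stretch, so the TCACGTG lies within the GENCODE gene.

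Among the heavy and light chains, Slc3a2 was measured at 155, 179.7, 110.1, 112 and 109.7 CPM in B16F0 and at 86.9, 139.7 and 235 CPM (lowest, median, highest) in B16F10. Its main partner Slc7a5 stood at 231, 253, 127, 156 and 156 CPM in B16F0 and at 139.9, 231 and 290.3 CPM in B16F10. The lines overlapped for both, and the log2 fold changes were 0.13 ± 0.21 (SE) for Slc3a2 and 0.19 ± 0.24 (SE) for Slc7a5 (edgeR adjusted p = 0.84 and 0.776). Slc7a5 was called higher (0.52, edgeR adjusted p = 0.0202) only where the name prefix of the libraries replaced the lane. Per kb, Slc7a5 was at 143% ± 20.1 of Slc3a2 in B16F10 (SD, n = 7) and 131% ± 12.5 in B16F0 (SD, n = 5). Slc7a8 was at 5.25% ± 1.36 of Slc3a2 in B16F10 and 11.5% ± 1.95 in B16F0, and the 6 light chains summed to 190.0% ± 27.0 and 195% ± 15.9. Slc7a8 thus formed a small share of the light chain mRNA in both lines.

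Slc7a11, the cystine and glutamate exchanger that feeds glutathione synthesis, gave a result that depended on 1 library. It stood at 149.6 CPM in B16F0 replicate 1 and at 44.9, 35.0, 47.3 and 28.9 CPM in the others, and at 49.5, 75.6 and 122 CPM (lowest, median, highest) in B16F10. The log2 fold change was 0.56 ± 0.41 (SE from edgeR, adjusted p = 0.588). Within lanes 1, 2 and 6 the difference was 1.27, -1.47 and 1.20, so lane 2, which holds B16F0 replicate 1, went the other way. Without that library the value was 1.26 and passed (edgeR adjusted p = 0.0267).

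Of the other Slc7 rows, the cationic carrier Slc7a1 stood at 551, 544, 412, 465.8 and 480.1 CPM in B16F0 and at 352, 617 and 783 CPM (lowest, median, highest) in B16F10, a log2 fold change of 0.17 ± 0.19 (SE from edgeR, adjusted p = 0.748). Its relative Slc7a2 had 1.05 ± 0.45 (SE, adjusted p = 0.296), with 10.6 and 8.90 CPM in B16F10 replicates 1 and 2 and between 0.68 and 2.84 CPM elsewhere, and those 2 libraries are also the ones of most background reads. Slc7a7, a light chain with the same exchange as Slc7a6, had -0.36 ± 0.16 (adjusted p = 0.309 in edgeR) and overlaps Oxa1l on the opposite strand. In the Slc1 family all 4 tested rows had log2 fold changes above 0 and none passed. Slc1a5 was measured at 37.7, 21.2, 34.8, 47.8 and 33.2 CPM in B16F0 and 38.5, 46.5 and 64.4 CPM in B16F10 (0.49 ± 0.17, SE from edgeR, adjusted p = 0.17). Slc1a2 had the largest value of all 26 rows, 1.71 ± 0.76 (SE, adjusted p = 0.309), and was again highest in B16F10 replicates 1 and 2, at 5.13 and 6.70 CPM. In B16F0 it had at most 11 counts in a library. Slc1a2 thus passed the filter on low counts only through B16F10 libraries, which favours a value above 0.

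In the Slc38 family 5 of 6 tested rows lay below 0 and only Slc38a7 passed. Slc38a2, itself an Atf4 target, stood at 347, 269, 294, 371 and 243 CPM in B16F0 and at 231, 293 and 351 CPM (lowest, median, highest) in B16F10 (-0.04 ± 0.16, SE from edgeR, adjusted p = 0.94). Slc38a9, which reports lysosomal arginine to mTORC1, stood at 17.8, 13.7, 19.6, 30.1 and 32.3 CPM in B16F0 and at 13.9, 21.7 and 28.5 CPM in B16F10 (-0.07 ± 0.20, SE, adjusted p = 0.919 in edgeR). In the Slc43 family Slc43a1 (LAT3) had 0.83 ± 0.28 and Slc43a2 (LAT4) -0.61 ± 0.20 on the log2 scale (adjusted p = 0.166 and 0.147 in edgeR). The proton-coupled carriers Slc36a1 and Slc36a4 had 0.08 and 0.39 (adjusted p = 0.803 and 0.376 in edgeR).

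**Figure D3:**
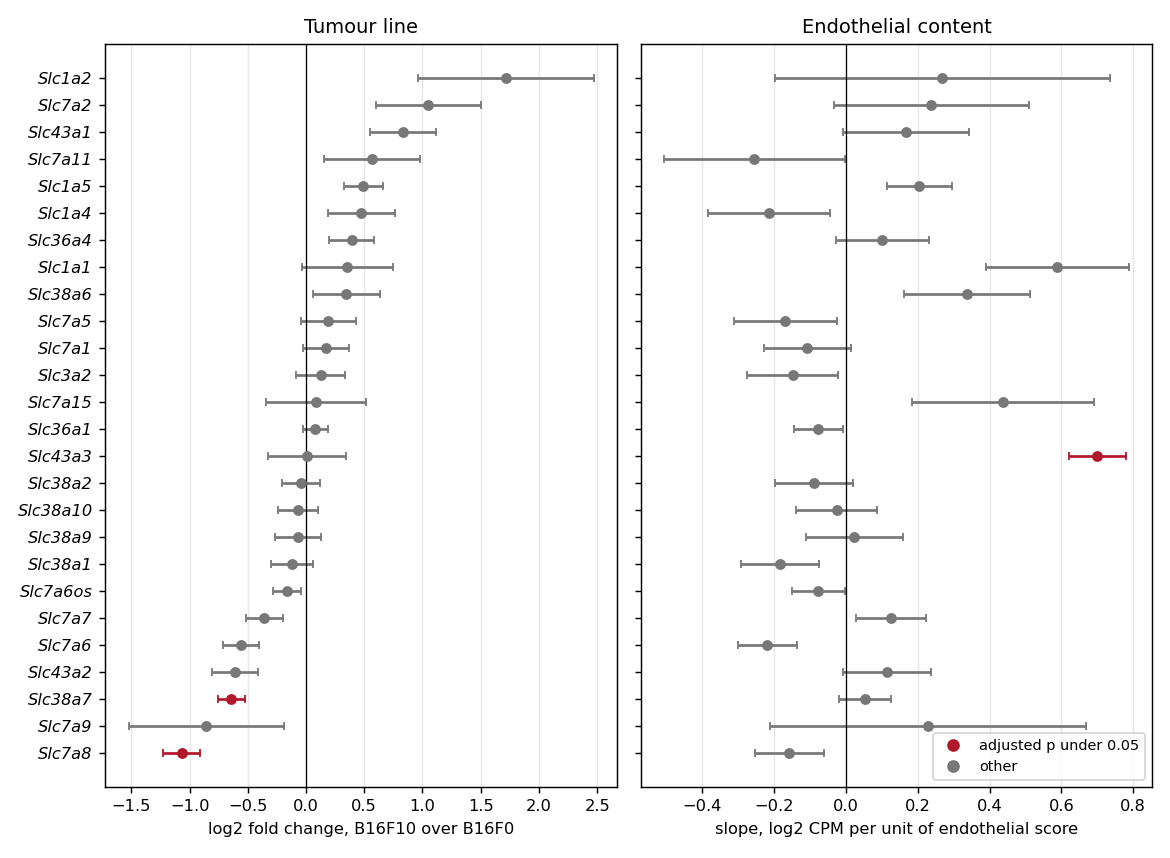
Left, log2 fold change of B16F10 over B16F0 for the 26 tested rows. Right, slope of log2 CPM per unit of endothelial score; points are edgeR estimates, bars 1 SE and red an adjusted p under 0.05. On the left Slc7a8 (-1.07) and Slc38a7 (-0.64) are red, and on the right Slc43a3 alone (0.70).

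The second comparison asked which transporters followed the endothelial content of the precipitates, with lane and line in the fit. Slc43a3, grouped with the amino acid carriers by sequence and known as a carrier of purine bases, rose with the score, and no row fell. That is 1 of 26 rows (3.85%), against 5.01% of all tested genes (4.51% rising and 0.502% falling), so the share was no higher than in the table as a whole. No transporter is among the 20 genes of the score. DESeq2 called the same single row, and limma-voom 4 rising rows (Slc43a3, Slc1a1, Slc38a6 and Slc7a15) and 3 falling ones (Slc7a5, Slc3a2 and Slc1a4). Those 7 of 26 rows (26.9%) compare with 32.9% of all genes called by limma-voom. At an unadjusted p under 0.05 there were 3 rising rows and 1 falling row (15.4%), against 20.4% of all genes in either direction. Scaling by library size alone gave 509 rising and 227 falling genes in place of 610 and 68, and Slc43a3 was the called row under it too.

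Slc43a3 (chr2:84936579-84958509, plus strand, GRCm38) stood at 34.2 CPM in B16F0 replicate 3 and at 11.2, 13.9, 7.44 and 5.45 CPM in B16F0 replicates 1, 2, 4 and 5. In B16F10 it stood at 33.9 CPM in replicate 4, at 13.2 in replicate 5 and at 8.02, 9.60, 11.6, 5.92 and 5.16 CPM in replicates 1, 2, 3, 6 and 7. Thus 2 of the 3 libraries of highest score were far above the rest, and B16F10 replicate 5, rich in Rn45s, was close to libraries of lower score. Those 2, B16F10 replicate 4 and B16F0 replicate 3, were both on lane 1 and share a name prefix. For them a high score and the shared prefix cannot be told apart. With the name prefix in place of the lane Slc43a3 was still the row called, in a fit that called 5.79% of all genes. The slope was 0.70 ± 0.08 log2 CPM per unit of score (SE from edgeR, adjusted p = 1.7e-04). Without the 3 libraries of highest score it was 0.60 with an adjusted p of 1, in a fit that called none of all tested genes. Between the lines its log2 fold change was 0.01 ± 0.33 (SE from edgeR, adjusted p = 0.994).

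The glutamate carrier Slc1a1 had a slope of 0.59 ± 0.20 (SE from edgeR, adjusted p = 0.129). It stood at 19.0 CPM in B16F10 replicate 4 and 16.5 CPM in B16F0 replicate 3, and at 2.40 to 7.08 CPM in the other 10 libraries. As said for Slc43a3, the 2 high libraries share lane 1 and a name prefix. B16F10 replicate 5, with the third highest score, had 5.10 CPM, and without it the slope was 0.78 and passed (edgeR adjusted p = 0.0422). Without B16F10 replicate 3 the slope was 0.33 (edgeR adjusted p = 0.514). Slc1a1 overlaps 4430402I18Rik on the opposite strand, and whether reads were counted by strand is not given in the sources used here. Slc38a6 (0.34 ± 0.18, adjusted p = 0.3 in edgeR) and Slc36a4 (0.10 ± 0.13, adjusted p = 0.669) also passed without B16F10 replicate 5, which raised the count from 1 to 4 of 26 rows (15.4%), while 15.7% of all genes were called in that fit. The 6 most abundant rows had slopes below 0 that did not pass, among them Slc7a5 (-0.17 ± 0.14), Slc3a2 (-0.15 ± 0.13) and Slc38a1 (-0.18 ± 0.11, SE), with adjusted p = 0.516, 0.52 and 0.348 in edgeR. The slopes of the genes lower in B16F10 did not pass, at -0.16 ± 0.10 for Slc7a8 and 0.05 ± 0.07 for Slc38a7 (SE from edgeR, adjusted p = 0.369 and 0.697). With the score in the fit by line, their log2 fold changes were -1.07 and -0.64, as without it.

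**Figure D4:**
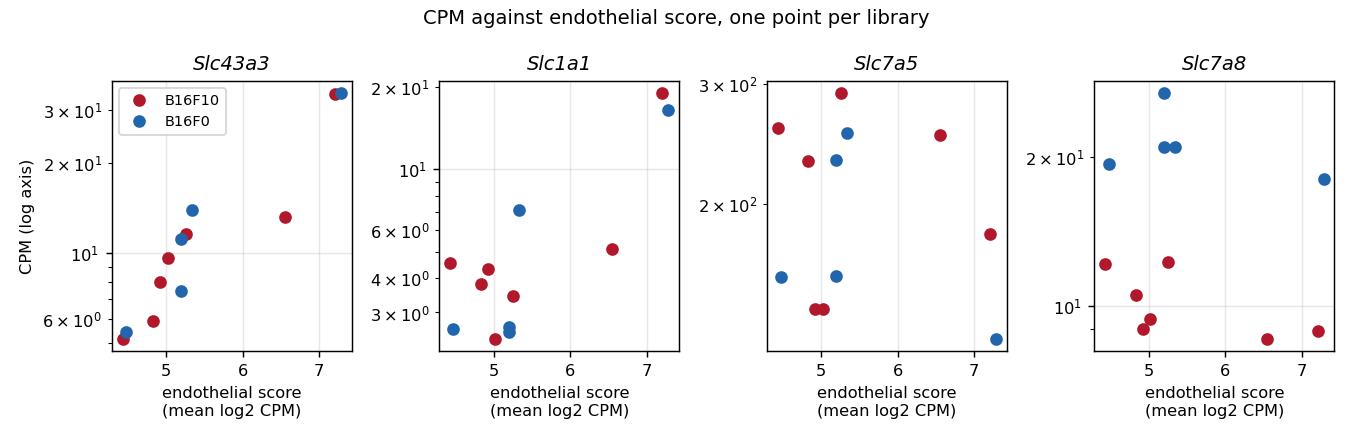
CPM (log axis, own range per panel) of Slc43a3, Slc1a1, Slc7a5 and Slc7a8 against the endothelial score, 1 point per library, B16F10 in red and B16F0 in blue. Slc43a3 reaches 33.9 and 34.2 CPM in the 2 libraries of highest score, and the Slc7a8 points of the lines stay apart at every score.

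Whether a slope differed between the lines was tested with a term for line by score. No row and no gene of the table was called in edgeR (0% of 13534), limma-voom called none of the 26 rows either, none of them had an unadjusted p under 0.05, and 1.31% of all genes had. The difference in slope, B16F10 minus B16F0, was 0.05 ± 0.14 (SE, unadjusted p = 0.746 in edgeR) for Slc43a3 and -0.02 ± 0.17 (unadjusted p = 0.889) for Slc7a8.

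The 18 rows below the filter had between 10 and 120 counts summed over the 12 libraries, and the highest single value was 4.01 CPM, for the glial glutamate carrier Slc1a3. They were Slc1a3, Slc1a6, Slc1a7, Slc36a1os, Slc36a2, Slc36a3, Slc38a3, Slc38a4, Slc38a5, Slc38a8, Slc38a11, Slc3a1, Slc7a3, Slc7a4, Slc7a10, Slc7a12, Slc7a13 and Slc7a14. Slc38a5, a glutamine carrier, had no count in any B16F0 library and at most 3 counts in a B16F10 library, so a level or a difference was not detectable at this depth. For 14 of the 18 the highest library was B16F10 replicate 1 or 2. Their summed level was 21.8 and 17.2 CPM in those libraries and between 2.21 and 9.50 CPM in the other 10, and the same 2 libraries had the most background reads, at 960 and 778 CPM. The part of background reads in these levels was not tested.

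**Figure D5:**
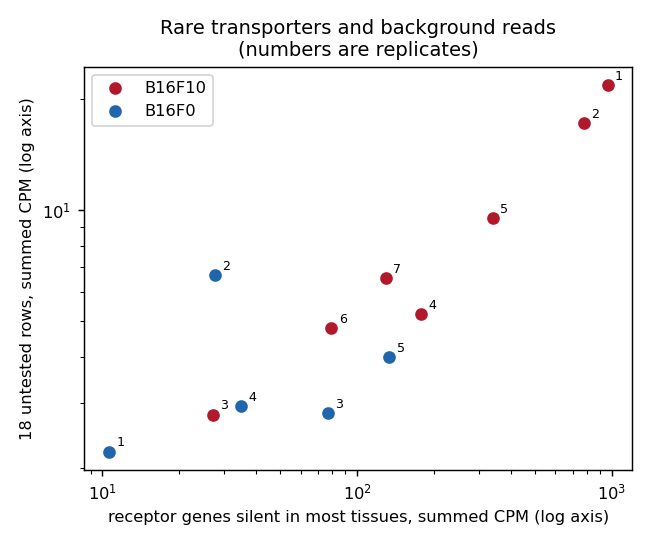
Summed CPM of the 18 untested rows against the summed CPM of receptor genes that most tissues do not use, both on log axes, 1 numbered point per library (B16F10 red, B16F0 blue). B16F10 replicates 1 and 2 have the highest values on both axes, 21.8 and 17.2 CPM of untested rows. The receptor sums are relative to all counts but Rn45s, without TMM.

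Other genes of amino acid biology were read off the same fits. Of 19 tested carriers outside these families 1 was called by line, where 2.77% of all tested genes were. The called gene was Slc6a15, a sodium-coupled carrier of branched-chain amino acids. It stood at 23.8, 27.5, 31.0, 44.8 and 36.5 CPM in B16F0 and at 68.0, 82.7 and 128 CPM (lowest, median, highest) in B16F10, a log2 fold change of 1.51 ± 0.18 (SE from edgeR, adjusted p = 5.4e-04) with no overlap. The median of these 19 genes was 0.07, against 0.02 over all tested genes.

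Of 18 genes of the amino acid response, most of them targets or partners of Atf4, 3 were higher in B16F10 and none lower. The median log2 fold change was 0.56, against 0.02 over all tested genes, 17 of 18 lay above 0, and 10 had an unadjusted p under 0.05. The share called higher was 16.7%, against 1.30% of all tested genes, and the share at an unadjusted p under 0.05 was 55.6%, against 14.8%. This list was chosen with earlier results of these data known, so its shares describe these libraries and are not an independent check. With replicate number in place of lane, 0 of the 18 were called, in a fit that called 0.429% of all genes. Fgf21, a secreted stress hormone, had 136 counts over the B16F10 libraries and 7 over those of B16F0 (3.82 ± 0.61, SE from edgeR, adjusted p = 0.00449). No B16F0 library had more than 3 counts of Fgf21, so it passed the filter on low counts only through B16F10, where it is high. Its call is part of the 16.7%. Fgf21 lost its call when replicate number replaced lane in the fit (edgeR adjusted p = 0.175). The lipoprotein receptor gene Vldlr had 1.10 ± 0.26 and the transcription factor Cebpb 0.96 ± 0.23 (SE, adjusted p = 0.0461 and 0.0466 in edgeR). Cebpb lost its call when any 1 of 11 libraries was left out, all but B16F10 replicate 5, and Vldlr when any 1 of 10 was, all but B16F10 replicate 3 and B16F0 replicate 1. Atf4 itself had 0.31 ± 0.16 and asparagine synthetase, Asns, 0.13 ± 0.34 (SE, adjusted p = 0.39 and 0.906 in edgeR). In the edgeR fit with lane these transporters among textbook Atf4 targets were not called higher: Slc7a11 had 0.56, Slc1a5 0.49, Slc7a5 0.19, Slc3a2 0.13 and Slc38a2 -0.04. Slc1a4, at 0.47, and Slc7a1, at 0.17, were not called either. Over 32 other settings Slc7a11 was called higher in 5, and Slc7a5 and Slc1a4 in 1 each. Whether these transporters differ from the 18 response genes was not tested.

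None of 31 genes of amino acid sensing by mTORC1 and none of 30 enzymes of amino acid metabolism was called by line. At an unadjusted p under 0.05 in edgeR there were 3 of 31 and 5 of 30. For all tested genes the edgeR shares were 2.77% called and 14.8% at an unadjusted p under 0.05. DESeq2 called 1 gene of each list by line and 6.3% of all genes, and limma-voom 1 and 4 genes and 4.94% of all. In edgeR 6 enzymes were called with the name prefix in place of the lane (4.65% of all genes). Another 2 fits called 6 with the melanocytic score added (4.18%) and 4 with background reads added (2.29%). These 3 fits called 0 sensing genes. With the endothelial score in the fit the enzyme gene Cth passed (edgeR adjusted p = 0.033). On the endothelial score 2 enzymes rose, the nitric oxide synthases Nos3 (1.158 ± 0.13, SE from edgeR, adjusted p = 1.7e-04) and Nos2 (0.85 ± 0.11, adjusted p = 5.7e-04), which use arginine and of which Nos3 is the endothelial form. That is 6.67% of the 30 enzymes, against 4.51% of all tested genes rising. Without the 3 libraries of highest score the slopes were 0.37 for Nos2 and 1.37 for Nos3. Neither passed, in an edgeR fit that called none of all tested genes. The call of Nos2 was also lost when replicate number replaced lane in the fit (0.89, edgeR adjusted p = 0.0603). Nos3 stood at 64.0, 54.7 and 59.4 CPM in the 3 libraries of highest score and at 5.23 to 26.4 CPM elsewhere. The sensing gene Gatsl2 rose too (0.34 ± 0.09, SE from edgeR, adjusted p = 0.0473), and lost the call when any 1 of 10 libraries was left out, all but B16F10 replicate 5 and B16F0 replicate 1. Gatsl2 was 1 of 31 sensing genes, while 4.51% of all tested genes rose. The median slope of the 30 enzymes was -0.20, with 4 above 0, and that of all tested genes was -0.00075, with 6740 of 13534 above 0. At an unadjusted p under 0.05 in edgeR there were 11 of the 30 enzymes, against 20.4% of all genes. On the score limma-voom called 20 of the 30, and 32.9% of all genes.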

How the data were processed

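Ribosome-bound mRNA of 7 B16F10 and 5 B16F0 tumour libraries was made into ScriptSeq libraries, per the labels. Read counts in whole numbers, 1 row for each symbol, are what the authors deposited. For the steps before that, the submitters' processing notes name the build mm10 and list featureCounts 1.6.0, STAR 2.2.1, cutadapt 1.16, R 3.3.2 and edgeR. Neither the annotation nor the strand setting is stated, so overlapping and near-identical genes may share reads. The log2 fold changes and p-values quoted from the authors' deposited table were read with its decimal comma as a point. Their normalized values had lost the decimal marks and were not used here.

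Groups and lanes came from the labels and library names. Of 24421 symbols 13534 passed filterByExpr (minimum count 10) and were fitted in edgeR 4.0.16 under R 4.3.3 with TMM scaling, lane as a factor and Benjamini-Hochberg adjustment over all of them, at a false discovery rate of 0.05. For the second comparison the endothelial score (prior count 2) was added. CPM are relative to the summed counts of the tested genes after TMM, except those of background reads. The latter are relative to all counts but Rn45s, without TMM. Exon lengths and gene positions are from GENCODE M21, and marker scores were compared by an exact two-sided permutation test of the 12 libraries (792 arrangements). Alternatives included DESeq2 1.42.0 and limma-voom (limma 3.58.1). The tests were tried on simulated counts. No 2 libraries of a line agreed within sampling noise (smallest chi-square per degree of freedom 7.36). Named rows are those called and 9 chosen for their known roles; Slc7a6, Slc1a1 and Slc7a2 were described in detail after their values were seen. Members and gene lists were chosen with earlier results of these data known, and 2 covariates, the background reads and the Y-linked gene Ddx3y, were added after seeing the data.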

Additional observations from a re-analysis of the deposited data

Results flagged for a closer look

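Among 62 sets of values of a line, 3 had 1 library far from the rest by Dixon's criterion, which chance meets in about 1 in 20. Slc1a1 stood at 19.0 CPM in B16F10 replicate 4, against 2.40 to 5.10 CPM in the other B16F10 libraries. That library has the highest endothelial score of its line. Slc38a6 stood at 10.6 CPM in B16F10 replicate 3, against 24.6 to 37.5 CPM in the others. The melanocytic score of the same library was 9.09, against 8.32 to 8.62 in the others of its line.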

How the results depend on the processing

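Slc7a8 was lower in B16F10 past the threshold in 31 of 32 other settings and Slc38a7 in 30 of 32, and neither lost its call when any single library was left out (highest edgeR adjusted p 0.0172 and 0.0459). The count of lower rows was 2, with 3 in limma-voom, in DESeq2, at a false discovery rate of 0.1 and with the endothelial score added (Slc7a6 each time), 3 with the library name prefix in place of the lane (Slc7a9), 1 without lane 2, 0 with the replicate block, and 2 to 3 with single libraries left out. The count of higher rows was 0, with 1 in limma-voom, without lane 2 and with background reads added (Slc7a11 each time), 1 with the melanocytic score added (Slc1a4), 2 with the name prefix (Slc7a5 and Slc7a11), and 0 to 1 with single libraries left out. Rising rows numbered 4 and falling rows 3 in limma-voom (32.9% of all genes called), 3 and 1 of 29 without the 2 libraries rich in Rn45s (19.2% of all genes), 2 rising without a lane term, 0 rising without the 3 libraries of highest score, and 1 to 4 rising with single libraries left out. The cause of these shifts was not tested.

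The replicate numbers did not pair the samples: deviations of same-numbered libraries correlated between -0.29 and 0.32, 1 of 5 pairs above 0.1, and 0 pairs were each other's best match. With the replicate block in place of the lane Slc7a8 had -1.14 (edgeR adjusted p = 0.0992), Slc38a7 -0.61 (0.322) and Slc43a3 a slope of 0.84 (0.0663), with 0 rising rows, and 1 row had a steeper and 1 a less steep slope in B16F10, in a fit that called 13.2% of all genes.

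No log2 fold change that passed the threshold in the report changed sign, while slopes of Slc1a1, Slc7a5, Slc3a2 and Slc1a4, which passed in limma-voom, did. The log2 fold change of Slc43a3 was -0.076 without a filter, -0.18 in limma-voom, -0.21 without a lane term, -0.58, -0.11 and -0.33 with the melanocytic score, endothelial score or background reads added, -0.27 without the Rn45s-rich libraries, -0.25 without the 3 highest and -0.015 without Rn45s. That of Slc38a2 was 0.064 in limma-voom, 0.038 with the name prefix, 0.11 and 0.18 with the melanocytic score or background reads, 0.053 without lane 2 and 0.060 without the 3 highest, and that of Slc38a9 was 0.060 without the Rn45s-rich libraries and 0.0089 without the 3 highest. With single libraries left out they ran from -0.22 to 0.21 (Slc43a3), -0.14 to 0.040 (Slc38a2), -0.21 to 0.033 (Slc38a9) and -0.012 to 0.39 (Slc3a2). Slopes changed sign with the name prefix (Slc3a2 0.035, Slc7a5 0.036, Slc1a4 0.031), with the melanocytic score (Slc7a8 0.023, Slc3a2 0.15, Slc7a5 0.19, Slc1a4 0.25), without the 3 highest (Slc1a1 -0.53, Slc7a8 0.0018), and for Slc38a7 without a lane term (-0.025) or the Rn45s-rich libraries (-0.010).

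Over the 32 settings 15 to 17 of the 18 response genes lay above 0, with a median of 0.47 to 0.73 and 0 to 11 called. Cebpb lost its call in 20 settings, Vldlr in 15 and Gatsl2 in 21. Rows of few counts are least certain in B16F10 replicate 1, the shallowest library.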
